A study of Mus musculus with 112 samples.

Results

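The epiblast is the part of the implanted mouse embryo from which the body forms, and epiblast stem cells (EpiSC) are the pluripotent cell lines derived from it. Amplified RNA of 4 EpiSC lines was compared with amplified RNA of 6 single epiblasts from embryos with a primitive streak. The comparison was between 18 bead arrays of a series that asked whether EpiSC from embryos of different ages are alike. The other 94 were not compared here, but all arrays were normalized together. Epiblasts of other stages also entered the estimate of the spread. Arrays were chosen from the labels. On one side stood the 12 arrays whose titles mark amplified RNA of the lines CAV2, PS5, LMS3 and LB2, with 3 cultures of each line averaged to 1 value per line. On the other stood 3 late midstreak and 3 late streak epiblasts, each a single embryo.

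All lines and embryos were of the R1-129 strain. By the labels CAV2 (passage 16) came from an embryo at the cavity stage (E5.5 to E6.0), PS5 (passage 16) from a prestreak embryo (E6.0 to E6.5), LMS3 (passage 11) from a late midstreak embryo (E6.75 to E7.5) and LB2 (passage 14) from a late bud embryo (E7.75 to E8.25). The late midstreak epiblasts were of E6.75 to E7.5 and the late streak epiblasts of E7.0 to E7.5. Cultures were lifted from a layer of fibroblasts with collagenase, while epiblasts were freed with trypsin and dissection. Growth in culture, the fibroblast layer and the enzyme differed between all EpiSC and all epiblasts, so their shares in any difference cannot be told apart. Each line is 1 line of cells, and an RNA sample of a whole epiblast or culture cannot tell fewer cells of a type from less RNA per cell.

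During gastrulation, epithelial cells of the posterior epiblast loosen their junctions, pass through the primitive streak and leave it as mesoderm or endoderm. Nodal, Wnt and BMP signals start this, and the transcription factors T, Eomes and Mesp1 mark the cells that take part. EpiSC keep the core pluripotency factor Pou5f1 and resemble the epiblast after implantation more than embryonic stem cells do, and in culture they depend on Nodal or Activin and on FGF.

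Probes were detected (detection p under 0.01) at 24.6 to 32.7 percent on the 12 EpiSC arrays and 24.66 to 29.04 percent on the 6 arrays of epiblasts. With so few arrays, precision is limited. The line LMS3 had the 3 lowest EpiSC values. The labels of PS5 and LB2 were not borne out. Correlations were taken across the tested genes, on deviations from the mean of the lines. The amplified arrays labelled PS5 correlated at 0.55 with the unamplified arrays of LB2 and at -0.22 with those of PS5. Those labelled LB2 correlated at 0.33 with unamplified PS5 and at -0.10 with unamplified LB2. Xist, the RNA that silences an X chromosome, and the Y-linked Eif2s3y, chosen after their values were seen, gave the same picture. Eif2s3y was detected on 3 of 3 amplified arrays labelled LB2 and 0 of 3 labelled PS5, but without amplification on 0 of 3 LB2 and 3 of 3 PS5 arrays. All of these arrays are EpiSC, so the comparison with embryos holds either way, and "PS5" and "LB2" below mean the arrays so labelled. Signals of probes near background split the amplified arrays into 3 sets. The late midstreak epiblasts lay in the first, the late streak epiblasts with CAV2 and LMS3 in the second, and PS5 and LB2 in the third.

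Of 12123 genes tested, 3909 differed (32.2 percent, limma with Benjamini-Hochberg adjustment, limit 0.05): 2293 were higher in EpiSC (18.9 percent) and 1616 lower (13.3 percent). Levels are normalized log2 intensities, log2 fold changes are lines minus embryos, and ± gives their standard error. Genes past 8-fold were mostly higher, 165 against 34. In 1459 of the higher genes all 4 lines lay above all 6 embryos, and in 966 of the lower genes all lay below. The median log2 fold change over all tested genes was -0.03. A test against a 2-fold minimum left 551 genes, 434 higher and 117 lower. A fit of only the lines and streak epiblasts gave 3549 genes, 2075 higher and 1474 lower. CAV2 and LMS3 against the late streak epiblasts, which share an array set, gave 5637 genes, 2909 higher and 2728 lower. Counts of called list members below stand beside 18.9 percent of all genes higher and 13.3 percent lower. Line values below follow the order CAV2, PS5, LMS3, LB2.

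The largest rise was that of smooth muscle actin Acta2, a gene of contractile fibroblasts, at 13.58, 13.49, 13.18 and 13.51 in the lines and 4.40 to 4.61 with a median of 4.48 in the embryos. No embryo array detected it, so it was at least 148-fold higher (adjusted p = 4.35e-11). Its 4 detected probes rose by 1.74 to 8.95 in log2 terms. The Nodal antagonist Lefty1 was at 12.89, 13.21, 11.49 and 13.69 in the lines and undetected in every embryo at 4.49 to 5.42 with a median of 4.59, and was at least 96.2-fold higher (adjusted p = 2.24e-13). All 4 lines lay above all 6 embryos for both genes, and for the 9 others described next.

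Of the other large rises, Bgn (biglycan, a matrix proteoglycan) was at least 62.9-fold higher and Spp1 (osteopontin, a secreted matrix protein) at least 30.8-fold. Synpo (synaptopodin, an actin-binding protein) and the chemokine Cxcl1 were at least 21.6- and 18.2-fold higher, the lectin Lgals3 at least 19.3-fold and the surface protein Ly6a at least 16.4-fold. Serpinf1, a secreted serpin, rose by 5.73 ± 0.49 (2 of 6 embryos detected it) and the gene named LYZ in the file, a lysozyme, by 5.54 ± 0.51 (1 of 6). Zeb1, a zinc finger repressor of epithelial genes, was at 10.37, 9.37, 10.12 and 9.71 in the lines against 4.40 to 4.68 with a median of 4.55 in the embryos, at least 12.7-fold higher (adjusted p = 1.23e-13). Of these 11 genes, 10 were higher still on 2 unamplified arrays of embryonic fibroblasts, and Lefty1 was not. Over all tested genes the fibroblast mean exceeded the line mean in 37.8 percent, over the higher genes in 46.6 percent and over those past 8-fold in 58.2 percent. The part of fibroblasts in these values was not tested.

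The largest fall was that of Rab25, a small GTPase of epithelial recycling vesicles, at 6.61, 4.69, 5.08 and 4.51 in the lines and 10.74 to 11.42 with a median of 11.22 in the embryos (-5.97 ± 0.28, adjusted p = 2.93e-13). It was detected on 3 of 12 EpiSC arrays. Ap1m2, the epithelial subunit of a clathrin adaptor, was at 4.83, 4.96, 4.66 and 4.73 in the lines and 9.75 to 10.28 with a median of 9.87 in the embryos, at least 15.6-fold lower (adjusted p = 7.33e-15). Ldhc, the lactate dehydrogenase of the male germ line, was at 4.44, 4.44, 4.42 and 4.59 and 9.90 to 10.39 with a median of 9.99, at least 16.8-fold lower (adjusted p = 7.33e-15). For these 3 genes every line lay far below every embryo. The arrays of the same 4 lines without amplification had them at 5.01, 4.56 and 4.43, also near background.

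Of the other large falls, Dppa5a (-4.95 ± 0.28) and Ooep (-4.61 ± 0.30), related RNA-binding proteins of pluripotent cells and eggs, were each detected on 1 of 12 EpiSC arrays. Tdh, the threonine dehydrogenase of early embryonic metabolism, was at least 7.31-fold lower and Fmr1nb at least 6.47-fold. Rbmxl2, an RNA-binding protein of the testis, was at least 4.77-fold lower, and Rps4l, a gene related to ribosomal protein S4, at least 10.5-fold. The homeobox genes Cdx2 (-4.47 ± 0.56) and Evx1 (-4.09 ± 0.37), both of the posterior embryo, were each detected on 4 of 12 EpiSC arrays. Rpl7a-ps3 (-4.07 ± 0.51) is a pseudogene whose probe may share signal with its parent gene; the unamplified arrays of the same lines had it at 13.78. Cdx2 was also low in the early epiblasts of the series (mean 5.67, against 9.72 in the streak epiblasts). In the bud stage epiblasts the means were 5.12 for Rps4l and 8.07 for Rpl7a-ps3. Lines minus bud stage, Rps4l was -0.60 (adjusted p = 0.187) and Rpl7a-ps3 -0.87 (adjusted p = 0.164), and neither passed.

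**Figure D1:**
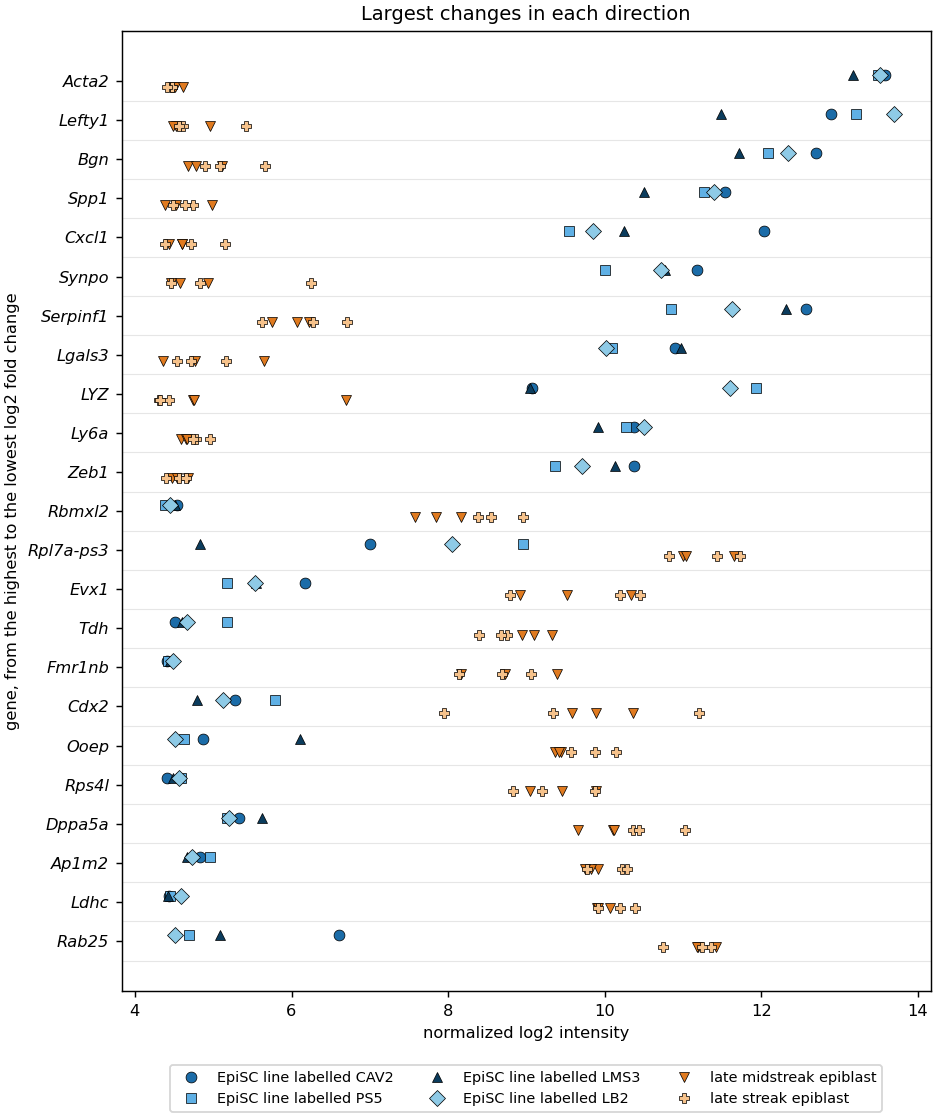
Normalized log2 intensity of 11 genes with the largest rises and 12 with the largest falls, in 4 EpiSC lines (each the mean of 3 cultures) and 6 single epiblasts. Every line lies on the same side of all 6 embryos for each gene, with the narrowest gap in Rpl7a-ps3, where the line labelled PS5 reached 8.96 against a lowest embryo of 10.81.

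Junction and epithelial genes were lower as a group. Of 15 tested members of the epithelium list, 10 fell, 1 rose and 4 did not pass, against 13.3 percent of all genes that fell; the median log2 fold change was -2.24 (-1.74 with undetected genes at their bound), against -0.03 over all genes. In each of the 10 that fell, every line lay below every embryo, against 966 of all 1616 lower genes. Cldn6, a tight junction claudin of early embryos, was at 7.69, 9.93, 7.82 and 8.78 in the lines and 11.67 to 12.13 with a median of 11.77 in the embryos (-3.30 ± 0.33, adjusted p = 8.55e-08). The lines differed here, with PS5 the highest, yet none reached the lowest embryo. Cldn4 (-3.07 ± 0.49) and Cldn7 (-2.42 ± 0.31), claudins of the same junctions, fell too.

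Regulators of the epithelial state fell beside the junction proteins. Esrp1, a splicing factor of epithelial cells, was at 9.59, 9.30, 9.22 and 8.12 in the lines and 11.59 to 12.49 with a median of 12.04 in the embryos (-2.99 ± 0.24, adjusted p = 2.68e-09). Grhl2, a transcription factor that maintains epithelia, was undetected on all 12 EpiSC arrays and at least 2.17-fold lower (adjusted p = 8.91e-07). E-cadherin, Cdh1, which holds epiblast cells together, stayed well above background at 10.41, 9.79, 10.67 and 8.99 against 11.14 to 11.70 with a median of 11.37 (-1.45 ± 0.24, adjusted p = 8.51e-05). P-cadherin, Cdh3 (-2.30 ± 0.32), and the membrane protease St14 (-1.74 ± 0.45) completed the 10; St14 did not pass without the lines labelled PS5 and LB2 (-1.12, adjusted p = 0.1). The keratins of simple epithelia did not follow. Krt8 (0.47 ± 0.23, adjusted p = 0.133) and Krt18 (-0.03 ± 0.23, adjusted p = 0.935) did not pass, and Krt19 rose, at least 1.96-fold, from below detection in the embryos.

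Mesenchymal genes moved less uniformly. Of 10 tested members 5 rose and 0 fell, with a median of 0.88 (0.64 with bounds). Besides Zeb1, its paralog Zeb2 was at 10.81, 9.09, 11.02 and 9.49 in the lines and 7.62 to 8.97 with a median of 8.27 in the embryos (1.81 ± 0.38, adjusted p = 0.000836). The intermediate filament Vim rose by 2.77 ± 0.67, but the line LMS3 at 6.41 overlapped the embryos, and without PS5 and LB2 it did not pass (1.68, adjusted p = 0.106). Prrx1 rose, and Snai2, detected on 3 of 12 EpiSC arrays, passed narrowly (adjusted p = 0.0371) and not without CAV2 (0.68 with adjusted p = 0.199) or without any 1 of the embryos (adjusted p of 0.0501 to 0.0569). Snai1, the repressor that drives cells out of the streak, was -1.07 ± 0.41 (adjusted p = 0.0509; lower without embryo LMS1, -1.37 with adjusted p = 0.00786, embryo LMS2, -1.19 with adjusted p = 0.0413, or line LMS3, -1.28 with adjusted p = 0.039), and N-cadherin, Cdh2, was -0.07 ± 0.31 (adjusted p = 0.89). On the fibroblast arrays Zeb1 (11.06) and Vim (13.81) were higher than in any line, and Zeb2 (8.84) was lower than in any line and within the range of the embryos. The part of fibroblasts was not tested.

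**Figure D2:**
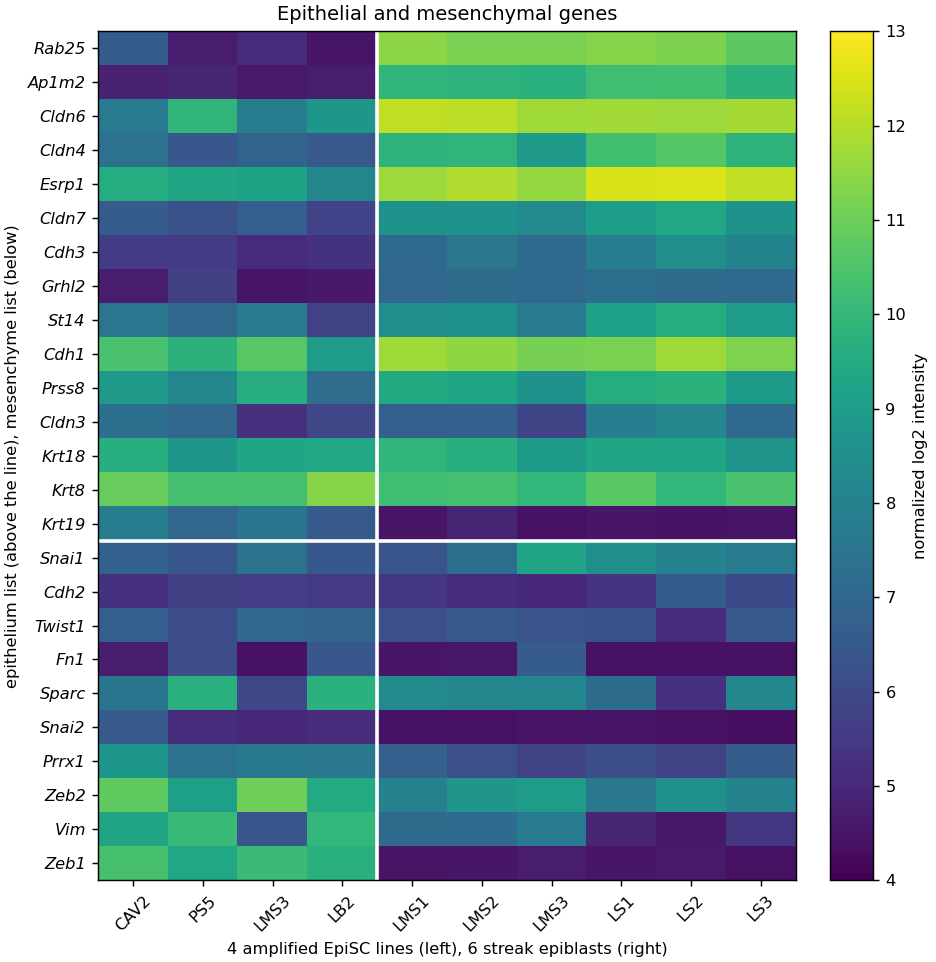
Normalized log2 intensity of the 15 tested epithelium genes (upper block) and 10 tested mesenchyme genes (lower block) in 4 EpiSC lines and 6 streak epiblasts, ordered within each block by log2 fold change. The upper rows are dark in the lines and bright in the embryos, Krt8 and Krt18 are bright in both, and Zeb1 is dark in all 6 embryos.

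Zeb1 and Zeb2 are known to bind E-box sequences in promoters of epithelial genes, so the promoters of 3 genes of this list that fell are shown with each CACCTG or its reverse complement CAGGTG in capitals. Each is 250 bases before to 50 after the start of the gene on its own strand, 5′ to 3′, from RefSeq on GRCm38.p6. They are Rab25 (chr3:88548230-88548529, minus strand), Ap1m2 (chr9:21312284-21312583, minus strand) and Cldn4 (chr5:134946885-134947184, minus strand).
Rab25: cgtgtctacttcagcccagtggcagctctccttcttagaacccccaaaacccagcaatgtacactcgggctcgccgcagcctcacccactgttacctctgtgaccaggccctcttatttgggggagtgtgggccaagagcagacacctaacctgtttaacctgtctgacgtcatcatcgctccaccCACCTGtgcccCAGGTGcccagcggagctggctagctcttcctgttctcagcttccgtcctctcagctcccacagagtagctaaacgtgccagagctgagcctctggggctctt
Ap1m2: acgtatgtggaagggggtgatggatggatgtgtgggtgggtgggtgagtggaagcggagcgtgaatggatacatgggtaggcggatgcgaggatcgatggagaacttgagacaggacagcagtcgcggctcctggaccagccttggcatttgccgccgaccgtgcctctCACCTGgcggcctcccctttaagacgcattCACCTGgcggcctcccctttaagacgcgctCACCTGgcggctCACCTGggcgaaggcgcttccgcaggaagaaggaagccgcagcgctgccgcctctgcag
Cldn4: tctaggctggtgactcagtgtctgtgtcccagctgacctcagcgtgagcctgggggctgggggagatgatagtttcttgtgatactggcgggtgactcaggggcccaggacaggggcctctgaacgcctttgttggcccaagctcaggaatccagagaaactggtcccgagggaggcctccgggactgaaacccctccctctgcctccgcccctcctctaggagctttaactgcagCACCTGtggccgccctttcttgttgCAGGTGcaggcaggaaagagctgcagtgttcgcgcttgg

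The Rab25 and Cldn4 windows each hold 2 matches and the Ap1m2 window 4. Among 32851 promoter windows of the same 300 bases, 20.2 percent hold at least 1 match, 2.88 percent at least 2 and 0.0548 percent (18 windows) at least 4, counting both strands. Of the 15 tested epithelium genes 8 have a window, and each has a match in at least 1 window of its own. These 8 include Krt8, Krt18 and Cldn3, which did not pass the test, beside 5 that fell. The motif was chosen after the falls were seen, and a match is a description of the letters, not of binding.

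Pluripotency genes were split. In the core pluripotency list 0 of 12 tested genes rose and 4 fell (median -0.12). Pou5f1, the factor that defines pluripotent cells, was at 10.10, 10.95, 7.80 and 10.42 in the lines and 10.64 to 12.002 with a median of 11.57 in the embryos (-1.65 ± 0.54, adjusted p = 0.0232). The line LMS3 stood lowest; without it the change was -0.98 and did not pass (adjusted p = 0.151), nor did it against late streak epiblasts alone (-1.44 with adjusted p = 0.123). Utf1, a chromatin factor of pluripotent cells, was at 5.89, 8.05, 4.68 and 7.31 against 9.05 to 9.96 with a median of 9.59 (-3.10 ± 0.62, adjusted p = 0.000588; 8 of 12 EpiSC arrays detected it). Sall4 (-0.73 ± 0.20; against late streak epiblasts alone -0.61 with adjusted p = 0.0673) and Lin28a (-1.23 ± 0.38) fell less, and of the 4 probes of Lin28a, a block on let-7 processing, 1 gave 0.11; without CAV2 Lin28a did not pass (-0.95 with adjusted p = 0.088). Nanog was at 11.21, 10.70, 10.71 and 10.17 in the lines and 9.23 to 10.83 with a median of 10.05 in the embryos (0.63 ± 0.39, adjusted p = 0.223). Nanog passed in the shared array set (1.07 with adjusted p = 0.0169), on the deposited processed values (0.28 with adjusted p = 0.0463) and with every probe tested on its own (0.71 with adjusted p = 0.0462). Sox2 was at 8.45, 7.64, 8.14 and 8.29 in the lines and 6.69 to 9.12 with a median of 7.60 in the embryos (0.33 ± 0.54, adjusted p = 0.678). Sox2 differed within the embryos, from 8.45 to 9.12 at late midstreak and 6.69 to 6.752 at late streak, and against the late streak epiblasts alone it was 1.41 higher in EpiSC (adjusted p = 0.0431).

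Genes linked to the naive state, the pluripotency before implantation, moved in both directions. Of 10 tested, 4 rose and 3 fell, against 18.9 and 13.3 percent of all genes. The falls were Esrrb (-1.45 ± 0.38), Dppa5a and Tdh. Against late midstreak epiblasts alone Esrrb did not pass (-0.66 with adjusted p = 0.159). Klf5 was at 8.86, 8.92, 10.00 and 9.31 in the lines and 6.73 to 8.52 with a median of 7.64 in the embryos (1.57 ± 0.32, adjusted p = 0.000701), and Tfcp2l1 at 7.66, 7.98, 8.40 and 7.96 and 6.09 to 7.49 with a median of 6.88 (1.16 ± 0.31, adjusted p = 0.00585). Both are transcription factors, and for both every line lay above every embryo. Fbxo15, a target of Pou5f1, was at least 2.82-fold higher. Klf2 was called higher (1.505 ± 0.53, adjusted p = 0.0327), but LMS3 was at 4.43, below every embryo. Within the shared array set the change was -0.06, and the call was lost without CAV2, PS5 or LB2 (adjusted p of 0.0916 to 0.122) and without embryo LMS1, LMS2, LMS3 or LS3 (0.0577 to 0.0701). The members that did not pass were Klf4 (called without LMS3, 1.48 with adjusted p = 0.0157), Nr5a2 and Gbx2, and 6 more, among them Zfp42, were too dim to test.

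Genes of the epiblast after implantation leaned to the embryo. Of 11 tested, 5 fell, against 13.3 percent of all genes, and 0 rose, with a median of -0.68. Otx2, the transcription factor of the anterior epiblast, was at 10.72, 10.76, 10.84 and 10.57 in the lines and 11.32 to 12.57 with a median of 12.17 in the embryos (-1.31 ± 0.27, adjusted p = 0.000753). Every line lay below every embryo. Fst, an Activin antagonist (-1.53 ± 0.42), Sall2 (-1.30 ± 0.21) and the kinase Pim2 (-1.25 ± 0.25) fell in the same way, and Zic2 (-1.37 ± 0.46) fell but did not pass without the line LMS3 (-1.04 with adjusted p = 0.115), embryo LMS2 (-1.26 with adjusted p = 0.0512) or embryo LMS3 (-1.22 with adjusted p = 0.0547). Fgf5 was at 10.09, 11.03, 11.81 and 10.57 in the lines and 10.70 to 11.75 with a median of 11.26 in the embryos, and did not pass (-0.41 ± 0.30, adjusted p = 0.323). Pou3f1 was -0.67 ± 0.32 (adjusted p = 0.106). Dnmt3b, a methyltransferase high in this layer, was between 13.39 and 14.08 in all 10 (-0.24 ± 0.12, adjusted p = 0.152), although another of its probes fell by 3.16, and without PS5 it fell (-0.36 with adjusted p = 0.0312). Its cofactor Dnmt3l was at 6.998, 6.05, 8.22 and 6.02 against 8.45 to 9.40 with a median of 9.20 (-2.24 ± 0.41, adjusted p = 0.000231), the only one of 6 tested DNA methylation genes to pass.

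Of 14 tested primitive streak genes 5 fell, 1 rose and 8 did not pass (median -1.13), against 13.3 percent of all genes that fell. Mesp1, the factor of the first mesoderm, was at 4.48, 4.59, 4.40 and 4.54 in the lines and detected on none of their arrays. The embryos ranged from 4.76 to 12.01 with a median of 8.87, and 5 of 6 detected it, which puts Mesp1 at least 6.98-fold lower in EpiSC (adjusted p = 0.000707). Eomes, which acts in mesoderm and endoderm formation, was at 5.95, 6.83, 5.95 and 6.55 against 8.11 to 10.90 with a median of 9.09 (-2.82 ± 0.48, adjusted p = 9.11e-05). Wnt3a (-2.43 ± 0.68) and the Wnt target Sp5 (-1.91 ± 0.58) fell beside Evx1. Against late midstreak epiblasts alone neither Wnt3a (-1.73 with adjusted p = 0.0895) nor Sp5 (-1.65 with adjusted p = 0.0685) passed. The fit of only the lines and streak epiblasts lost both calls (adjusted p = 0.0516 for Wnt3a and 0.055 for Sp5). Nor did Sp5 pass without PS5 (-1.49, adjusted p = 0.0637) or in the shared array set (-1.50 with adjusted p = 0.107). T (brachyury) was at 7.34, 7.31, 8.66 and 8.28 in the lines, with every array detecting it, and 4.68 to 10.88 with a median of 8.99 in the embryos. Its difference did not pass (-0.76 ± 0.74, adjusted p = 0.466). Embryo LMS1 was low in this list, with a mean of 6.06 against 7.18 to 9.58 in the other 5 and T at 4.68. Without LMS1, T fell by 1.56 in EpiSC (adjusted p = 0.0156). Fgf8 was split among the lines, 5.37, 9.62, 4.71 and 8.95, with PS5 and LB2 in the embryos' range and CAV2 and LMS3 near background (-1.500 ± 0.80, adjusted p = 0.16). It passed without PS5 (-2.32 with adjusted p = 0.0271), and without PS5 and LB2 it was -3.62 (adjusted p = 0.000707).

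The member of that list that rose was Gsc, a homeobox gene of the anterior streak and node, at 7.94, 6.34, 10.40 and 8.31 in the lines and 4.58 to 7.79 with a median of 5.58 in the embryos (2.23 ± 0.61, adjusted p = 0.00731; 1.51 with adjusted p = 0.0532 without LMS3). In the node and definitive endoderm list 3 of 11 rose, against 18.9 percent of all genes, and 0 fell. Shh, the signal of node and notochord, was at 7.02, 6.77, 9.52 and 9.43 in the lines and undetected in all embryos, at least 3.88-fold higher (adjusted p = 1.09e-06). Foxa1, a forkhead factor of endoderm and floor plate, was at least 1.76-fold higher. Sox17 of the endoderm was 1.47 ± 0.62 (adjusted p = 0.0729), with PS5 at 5.12 and LMS3 at 9.59, and passed without PS5 (2.26 with adjusted p = 0.00325). Foxa2, Cer1 and Hhex did not pass. Foxa2 was higher without CAV2 (0.90 with adjusted p = 0.0273), PS5 (0.80 with adjusted p = 0.0443) or LMS3 (0.88 with adjusted p = 0.0275), and Hhex without PS5 (0.94 with adjusted p = 0.0391).

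Of 9 tested neuroectoderm genes 7 rose, against 18.9 percent of all genes, and 1 fell (median 2.15, 1.98 with bounds). In all 7 every line lay above every embryo, against 1459 of all 2293 higher genes. En1, a homeobox gene of midbrain and hindbrain, was at 9.58, 7.80, 10.03 and 10.07 and undetected in the embryos, at least 8.83-fold higher (adjusted p = 5.06e-11). Its paralog En2 was at least 4.17-fold higher. The neural adhesion gene Ncam1 was at 10.38, 7.64, 10.01 and 8.90 against 4.94 to 6.65 with a median of 6.20 (3.20 ± 0.40, adjusted p = 1.81e-06), and Irx2 (1.98 ± 0.36), Meis2 (2.15 ± 0.38), Zic1 and Lmx1a rose. Otx1 fell, at 5.14, 4.95, 5.71 and 4.93 in the lines and 7.85 to 8.57 with a median of 8.43 in the embryos (-3.13 ± 0.32, adjusted p = 1.26e-07). Of the early neural genes, Sox1, Sox3 and Pax6 were too dim to test.

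Of 14 tested Cdx and Hox genes, which give cells their position along the axis, 8 rose, against 18.9 percent of all genes, and Cdx2 fell. The median of 1.70 dropped to 0.16 with bounds, since 11 had no detection in the dimmer arm. Those 11 were tested only through the arm that detected them, so the count of rises was partly set by the filter on detection. Hoxb2, a hindbrain Hox gene, was at 10.09, 8.24, 10.29 and 10.23 in the lines and 6.33 to 7.63 with a median of 6.55 in the embryos (2.93 ± 0.57, adjusted p = 0.000396). Hoxa7, which acts further back, was at 9.43, 6.34, 8.73 and 6.68 and at least 2.96-fold higher, and Hoxc6 at least 1.95-fold. The line CAV2 had the highest list mean, 7.63 against 5.79 to 6.51 in the other lines. Retinoic acid genes went the same way, with 4 of 7 up, against 18.9 percent of all genes, and 0 down. The binding protein Crabp1 was at 11.89, 10.38, 11.93 and 11.82 against 7.29 to 8.32 with a median of 7.65 (3.79 ± 0.30, adjusted p = 1.84e-09), and Meis1, a partner of Hox proteins, was at least 7.62-fold higher.

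Signalling pathways were described by ligands, antagonists and targets. For Nodal and Activin, 4 of 12 tested genes rose and 1 fell, against 18.9 and 13.3 percent of all genes. The ligand Nodal was at 11.81, 12.51, 10.68 and 11.80 in the lines and 9.80 to 10.80 with a median of 9.98 in the embryos (1.51 ± 0.35, adjusted p = 0.00229). Of the lines, LMS3 overlapped the embryos, and without PS5 and LB2 the change did not pass (1.06 with adjusted p = 0.0608). Gdf3, a related ligand, was at 9.24, 8.66, 10.36 and 10.17 against 5.496 to 7.33 with a median of 6.69 (3.10 ± 0.43, adjusted p = 8.23e-06), and Gdf1, which pairs with Nodal, fell from 10.83 to 11.31 with a median of 10.94 in the embryos to 8.51, 9.11, 8.16 and 9.09 (-2.29 ± 0.31, adjusted p = 7.2e-06). With Lefty1, the members that rose included ligands and an antagonist. Lefty2, the coreceptor Tdgf1 and the cofactor Foxh1 did not pass. Without embryo LMS3 both Lefty2 (2.11 with adjusted p = 0.00117) and Tdgf1 (1.75 with adjusted p = 0.00136) were higher, and without PS5 Foxh1 was lower (-1.54 with adjusted p = 0.0165).

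In the BMP list 4 of 8 tested genes fell and 2 rose (median -1.03, -0.65 with bounds). Id1, an inhibitor of differentiation and a direct BMP target, was at 8.61, 7.91, 7.93 and 8.90 in the lines and 10.14 to 12.08 with a median of 10.91 in the embryos (-2.63 ± 0.39, adjusted p = 1.65e-05). Id3 (-1.37 ± 0.25) and the homeobox gene Msx1 (-2.72 ± 0.35, detected on 1 of 12 EpiSC arrays) fell too, and Tfap2a, a factor of surface ectoderm, was at least 1.53-fold lower. The targets Id2 (-0.69 ± 0.42, adjusted p = 0.219) and Id4 (0.03 ± 0.55, adjusted p = 0.968) did not pass. The ligands Bmp4 (0.98 ± 0.31, adjusted p = 0.0181) and Bmp7 (1.46 ± 0.46, adjusted p = 0.0179) were the members that rose. Neither call held in the shared array set (0.38 with adjusted p = 0.368 for Bmp4, 1.56 with adjusted p = 0.0575 for Bmp7). Nor did Bmp4 pass without LB2 (0.73 with adjusted p = 0.0894) or Bmp7 without CAV2 (1.38 with adjusted p = 0.0554) or LMS3 (1.35 with adjusted p = 0.0542). In the Wnt list 3 of 12 fell and 2 rose, against 13.3 and 18.9 percent of all genes. The feedback target Axin2 was at 7.49, 8.70, 7.76 and 8.77 against 8.57 to 10.63 with a median of 9.64 (-1.40 ± 0.36, adjusted p = 0.00467; against late midstreak epiblasts alone -0.79 with adjusted p = 0.0926), while the Wnt-binding antagonist Sfrp1 (1.19 ± 0.32) and the ligand Wnt5a (1.06 ± 0.34) rose. Wnt5a did not pass without CAV2 (1.00 with adjusted p = 0.0592) or LMS3 (0.83 with adjusted p = 0.0898), and Sfrp1 did not without PS5 and LB2 (0.72 with adjusted p = 0.15). Of 10 FGF and ERK genes 2 rose, near the 18.9 percent of all genes: the feedback inhibitors Spred1 (0.84 ± 0.24; 0.55 with adjusted p = 0.146 in the shared array set, 0.73 with adjusted p = 0.0641 without PS5 and LB2) and Il17rd (1.15 ± 0.36; without CAV2 0.93 with adjusted p = 0.084). Dusp6, Etv4 and Etv5 did not pass. Dusp6 was higher without PS5 (0.85 with adjusted p = 0.03), embryo LMS3 (0.81 with adjusted p = 0.0285), embryo LS1 (0.78 with adjusted p = 0.0389) or embryo LS2 (0.76 with adjusted p = 0.0464). Etv5 was lower without PS5 (-1.60 with adjusted p = 0.0401) and Etv4 in the shared array set (-3.12 with adjusted p = 0.000144). Notch1 (1.93 ± 0.29) and Notch3 (1.26 ± 0.44) rose among 6 Notch genes, against 18.9 percent of all genes. Notch3 did not pass without CAV2, PS5 or LB2 or without embryo LMS1, LMS2 or LMS3 (adjusted p of 0.0558 to 0.083), and was 0.21 with adjusted p = 0.623 in the shared array set.

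Imprinted genes, expressed from a single parental copy, rose in 8 of 12 cases, against 18.9 percent of all genes, and 0 fell (median 0.89, 0.88 with bounds). Igf2, a fetal growth factor, was at 14.00, 12.34, 13.65 and 13.89 in the lines and 8.41 to 9.24 with a median of 8.99 in the embryos (4.59 ± 0.30, adjusted p = 5.5e-11). Its neighbour H19, a noncoding RNA of the opposite parental copy, was at 14.23, 12.73, 14.16 and 14.12 against 10.00 to 11.26 with a median of 10.27 (3.41 ± 0.35, adjusted p = 9.37e-08). Both members of this pair lay above every embryo in every line. Dlk1 (4.15 ± 0.37) and the cell cycle inhibitor Cdkn1c (3.44 ± 0.36) rose by a like amount, and Ndn (0.90 ± 0.23), Peg3 (0.82 ± 0.27), Grb10 (0.89 ± 0.28) and Nnat by less. Of these 3 calls, Peg3 was lost without LMS3 (0.62 with adjusted p = 0.105), Grb10 without PS5 (0.69 with adjusted p = 0.0824) or LB2 (0.67 with adjusted p = 0.0919) and Nnat without LB2 (0.62 with adjusted p = 0.0714). Meg3, Mest, Igf2r and Phlda2 did not pass, though Phlda2 was higher without LB2 (1.43 with adjusted p = 0.00828). Of 10 insulin-like growth factor genes 5 rose, with Igfbp5, a binding protein, at 11.82, 9.43, 12.80 and 11.77 against 6.95 to 8.46 with a median of 7.90 (3.67 ± 0.43, adjusted p = 7.32e-07). Igf2 and H19 stood at 14.06 and 13.98 on the fibroblast arrays and at 13.59 and 13.27 on the unamplified arrays of the same lines; the part of fibroblasts was not tested.

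All 15 tested immediate early genes, which cells switch on within minutes of a stimulus, were higher in EpiSC (background 18.9 percent; median 2.60, 2.20 with bounds). In 11 of them every line lay above every embryo, as in 1459 of all 2293 higher genes. Egr1, a zinc finger factor, was at 13.87, 13.31, 12.97 and 13.33 in the lines and 6.68 to 10.86 with a median of 8.48 in the embryos (4.58 ± 0.64, adjusted p = 9.04e-06). Fos, a part of the dimer AP-1, was at 12.13, 10.79, 9.59 and 10.44 against 6.03 to 8.64 with a median of 6.74 (3.58 ± 0.64, adjusted p = 0.000165). The secreted Ccn2 was at 13.73, 13.40, 13.15 and 12.85 against 9.44 to 11.05 with a median of 10.50 (2.91 ± 0.31, adjusted p = 2.48e-07). Ier3 (3.00 ± 0.57), Egr2 (3.13 ± 0.36, 2 of 6 embryos) and Jun (2.04 ± 0.41, 3 of 6 embryos) followed, and Junb (2.59 ± 0.53) did not pass in the shared array set (1.02, adjusted p = 0.165). The mean of the list was 8.63 to 10.19 in the lines, 6.21 to 6.31 in late midstreak and 6.86 to 7.82 in late streak epiblasts. Cultures and embryos were freed with different enzymes, so the state of the cells and their handling cannot be told apart.

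Of 14 tested targets of p53 and inhibitors of the cell cycle 11 rose and 1 fell, against 18.9 and 13.3 percent of all genes (median 1.79, 1.45 with bounds). Cdkn1a, the inhibitor p21, was at 10.83, 10.74, 9.79 and 9.82 in the lines and 7.28 to 8.36 with a median of 7.59 in the embryos (2.56 ± 0.53, adjusted p = 0.000738). Ccng1, a cyclin induced by p53, was at 11.47, 11.72, 11.08 and 10.75 against 8.08 to 9.39 with a median of 8.52 (2.63 ± 0.32, adjusted p = 1.64e-06). Cdkn2a, a gene often induced in culture, was undetected in the embryos and at least 2.34-fold higher. Trp53inp1 rose by 2.15 ± 0.44 and Mdm2, the ubiquitin ligase for p53, by 0.87 ± 0.24 (against late streak epiblasts alone 0.45 with adjusted p = 0.188). Trp53, the gene of p53 itself, was at 4.99, 9.65, 5.46 and 9.12 in the lines and 8.20 to 9.39 in the embryos, and did not pass. Bax, which promotes cell death, fell (-1.30 ± 0.40) but did not pass without CAV2 (-1.18, adjusted p = 0.0592) or LMS3 (-1.03, adjusted p = 0.0776). Among 18 proliferation genes only Plk1 rose (0.56 ± 0.21, adjusted p = 0.0462, lost without CAV2, without LMS3 or without embryo LMS1, LMS2, LMS3 or LS1 at 0.0606 to 0.196) and only Ccne1 fell (-1.34 ± 0.34); Mki67, Ccnb1 and Pcna were among the 16 that did not pass, though Mki67 was higher without LMS3 (1.22 with adjusted p = 0.0446) or embryo LMS3 (1.13 with adjusted p = 0.0459).

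All 7 tested genes of class I antigen presentation rose (median 1.46). B2m, the light chain of class I molecules, was at 10.71, 10.98, 10.53 and 10.59 in the lines and 8.29 to 9.11 with a median of 8.77 in the embryos (1.96 ± 0.23, adjusted p = 6.91e-07). The peptide transporter Tap2 was at 8.98, 8.32, 8.80 and 7.85 against 4.63 to 6.54 with a median of 5.32 (3.03 ± 0.46, adjusted p = 2.69e-05; 1 of 6 embryos), and the immunoproteasome subunit Psmb9 was at least 3.17-fold higher. The heavy chain H2-D1 (1.46 ± 0.44) did not pass without PS5 (1.11, adjusted p = 0.0654) or LB2 (1.24, adjusted p = 0.0549), and was 0.73 with adjusted p = 0.226 in the shared array set and 0.60 with adjusted p = 0.368 without both lines. On the fibroblast arrays B2m, Tap2 and Psmb9 were at 13.83, 9.72 and 7.34; the part of fibroblasts was not tested.

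In the fibroblast list 14 of 15 tested genes rose, against 18.9 percent of all genes, and Thy1 did not pass (0.37 ± 0.38, adjusted p = 0.481). Its median of 1.57 dropped to 0.37 with bounds, because 12 members were undetected in every embryo. Col6a1, a collagen subunit, was at 9.40, 9.34, 8.32 and 9.49 in the lines, at least 7.5-fold higher, and the collagen cross-linking enzyme Lox at least 4.36-fold. The proteoglycan Dcn was at 12.08, 9.66, 10.99 and 10.87 against 5.79 to 7.01 with a median of 6.77 (4.27 ± 0.59, adjusted p = 7.2e-06). The major collagen of fibroblasts, Col1a1, was lower than these at 6.42, 6.04, 4.64 and 5.99, detected on 8 of 12 EpiSC arrays, and was 12.58 on the fibroblast arrays. Over the 7 marker genes of fibroblasts, the summed intensity was 1503 to 5515 in the lines and 367.5 to 804.3 in the embryos, where 5 of the 7 were detected on no array. Such sums are of linear intensities, so the brightest markers, here Dcn among them, weigh most. Basement membrane genes rose in 6 of 12 cases, against 18.9 percent of all genes, with Lama1 (2.03 ± 0.37) and Col4a2 (1.48 ± 0.46) among them. Col4a2 did not pass without LB2 (1.05 with adjusted p = 0.0886), without PS5 and LB2 (0.67 with adjusted p = 0.33) or in the shared array set (0.35 with adjusted p = 0.638).

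None of 6 tested visceral endoderm genes passed. The summed markers of that layer were 160.9 to 249.6 in the lines and 104.4 to 1511 in the embryos, and Afp and Ttr were below the filter. Of 8 tested mesoderm genes 3 rose and 1 fell, against 18.9 and 13.3 percent of all genes. The forkhead gene Foxc1 was at 7.45, 5.70, 7.03 and 7.02 in the lines and 4.55 to 6.51 with a median of 4.66 in the embryos (1.82 ± 0.36, adjusted p = 0.000507), and Prrx1 rose as above. Pdgfra, a growth factor receptor (1.27 ± 0.41), did not pass without CAV2 (0.94 with adjusted p = 0.114) or LMS3 (1.09 with adjusted p = 0.0755). Osr1 fell (-0.66 ± 0.15, adjusted p = 0.00195), but the deposited processed values gave 0.49 with adjusted p = 0.0821. The mesoderm markers summed to 259 to 1043 in the lines and 166.8 to 4955 in the embryos. In the trophoblast list 2 of 4 rose. Sox21, a Sox factor also of the nervous system, was at 10.47, 8.49, 11.71 and 10.87 against 5.77 to 6.70 with a median of 6.25 (4.14 ± 0.45, adjusted p = 2.84e-07), and Wnt7b rose, while Elf5 and Ascl2 were too dim to test. Dnd1 of the germ line fell (-2.43 ± 0.48, adjusted p = 0.000472), and 2 other germ cell genes did not pass.

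Of 16 glycolysis and hypoxia genes 2 rose and 2 fell, against 18.9 and 13.3 percent of all genes: the growth factor Vegfa was at 10.30, 10.06, 10.10 and 10.11 in the lines and 7.36 to 8.33 with a median of 7.74 in the embryos (2.33 ± 0.29, adjusted p = 1.78e-06) and the glucose transporter Slc2a3 rose (1.15 ± 0.14), while Pfkl and Pkm (-0.90 ± 0.30) fell. Pfkl did not pass without LMS3 (-0.43 with adjusted p = 0.0589). Pkm did not pass without CAV2 (-0.90 with adjusted p = 0.0603), LMS3 (-0.38 with adjusted p = 0.169) or embryo LS2 (-0.84 with adjusted p = 0.0503). Of 16 respiratory chain genes 1 rose and 2 fell, the falls being Ndufa4 (-1.01 ± 0.23) and Cox7a2 (-1.35 ± 0.40; without PS5 and LB2 -1.12 with adjusted p = 0.102). Sterol synthesis had 4 of 16 up, near the 18.9 percent of all genes, with Msmo1 at 1.92 ± 0.31 and Cyp51 at 1.61 ± 0.43. Against late midstreak epiblasts alone Cyp51 did not pass (0.70 with adjusted p = 0.172). Heat shock genes were divided, with Hspb1 higher (2.08 ± 0.31) and the chaperones Hspe1 (-1.54 ± 0.36) and Hsph1 (-0.75 ± 0.16) lower. Metallothionein Mt1 rose by 1.11 ± 0.27, the only 1 of 5 metal response genes to pass, near the 18.9 percent of all genes.

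**Figure D3:**
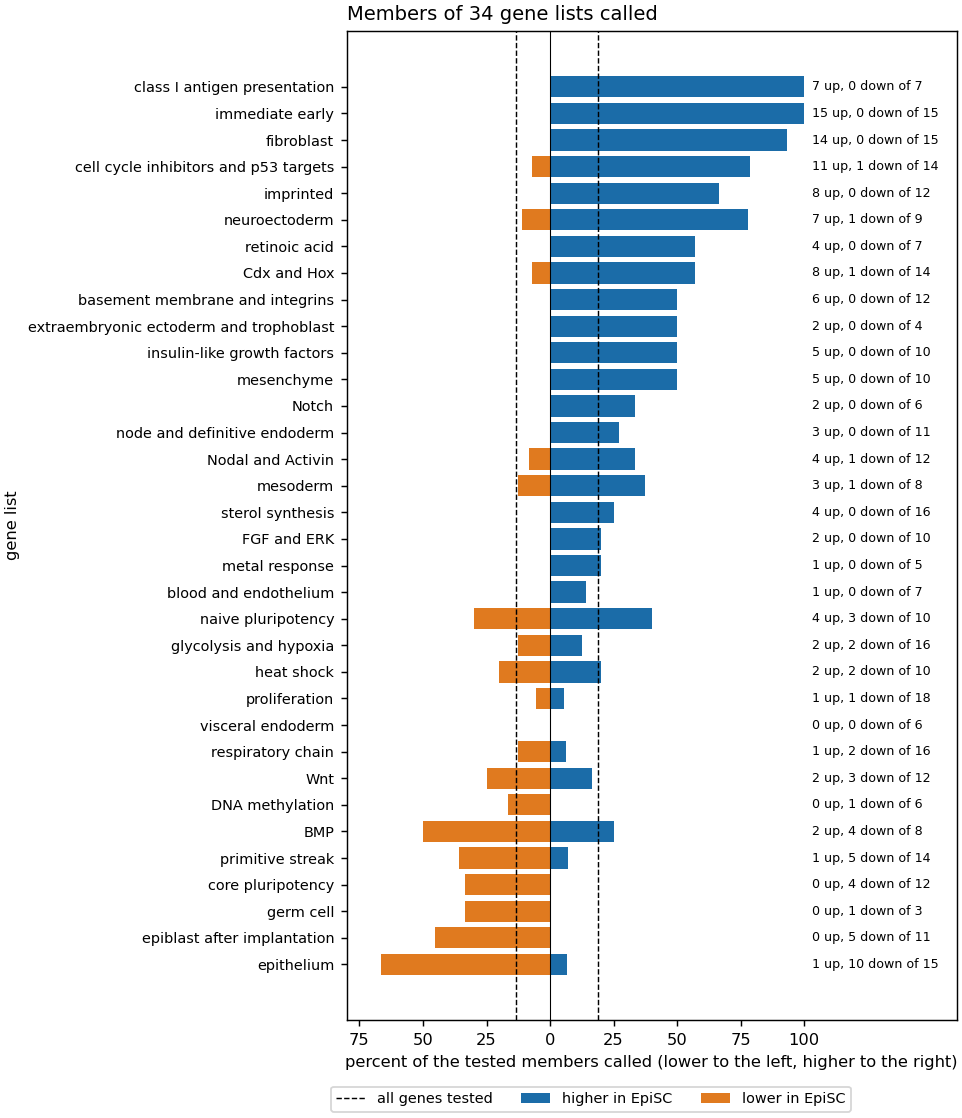
Percent of the tested members of each of 34 gene lists that were higher (right) or lower (left) in EpiSC than in streak epiblasts, with counts beside each bar. Dashed lines mark all genes tested, 18.9 percent higher and 13.3 percent lower. Immediate early genes (15 of 15), class I genes (7 of 7) and fibroblast genes (14 of 15) lie far right, and epithelium (10 of 15 lower) far left. Of the 15 fibroblast genes 12 were undetected in every embryo and were tested only through the lines.

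**Figure D4:**
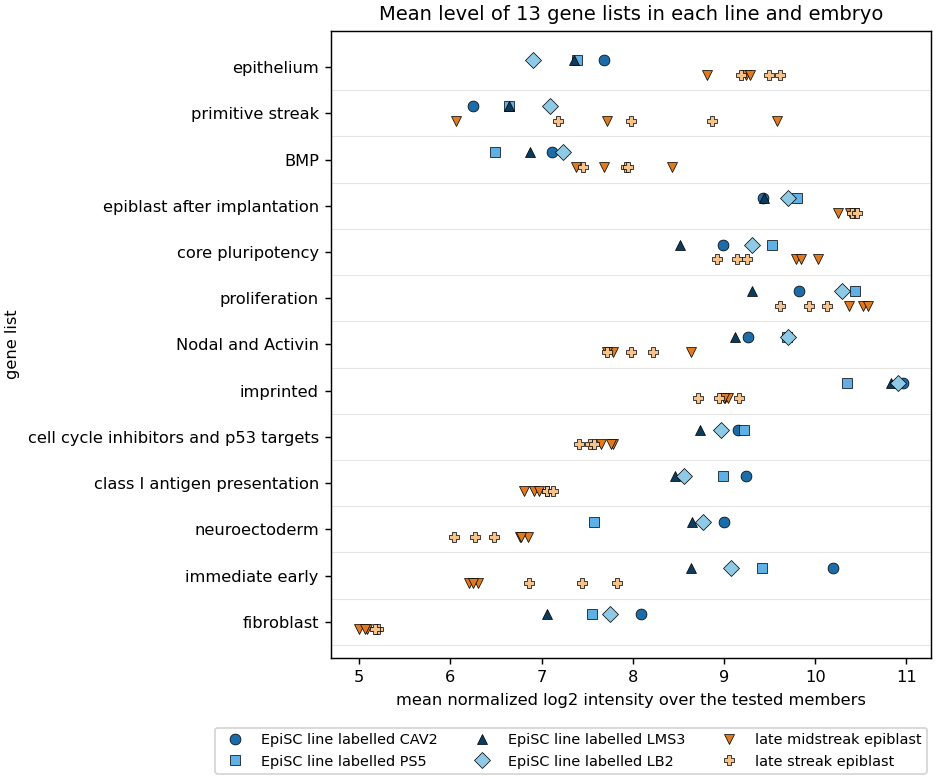
Mean normalized log2 intensity over the tested members of 13 gene lists in each EpiSC line and each streak epiblast. Lines and embryos do not overlap for the epithelium list (6.90 to 7.69 against 8.82 to 9.61) or the fibroblast list (7.06 to 8.09 against 4.995 to 5.212), and overlap for the primitive streak and proliferation lists. Of the 15 fibroblast genes 12 were undetected in every embryo and were tested only through the lines. The gap in that list was therefore partly set by the filter on detection.

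The embryo arm joined epiblasts of adjoining stages that also lie in different array sets, so stage and array set cannot be told apart. Between them 1959 of 9931 genes differed (19.7 percent), 933 higher and 1026 lower at late streak. Leaving out 1 embryo gave 1092 (embryo LMS3), 1228 (LS1), 1235 (LMS1) and 1041 (LS2) genes, and fitting only these groups 3360. The 6 genes with the smallest p were all lower at late streak. G2e3, a ubiquitin ligase, was at 10.34 at late midstreak and 5.65 at late streak (-4.69 ± 0.35, adjusted p = 6.02e-07), with EpiSC lines between them at 7.93 to 8.96. Sfr1, of DNA repair, was 8.90 and 4.87 (-4.02 ± 0.36), and the chaperone Hsp90aa1 was 11.54 and 8.89 (-2.65 ± 0.25). Fxr1, Utp14a and LOC380665 completed the 6. In 5 of the 6 every EpiSC line lay above every late streak epiblast, and in Hsp90aa1 LB2 at 9.09 lay below embryo LS1 at 9.19. Of the immediate early genes Egr1 (adjusted p = 0.00695), Fos (adjusted p = 0.0455) and Ier3 (adjusted p = 0.0264) were higher at late streak. The 2-fold minimum left 65 genes.

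Most genes differed among the lines. Over the 12 cultures 10429 of 11641 genes differed among the lines (89.6 percent, limma's F test). The test sets these differences against the spread between cultures of a line. CAV2 and LMS3 lie in a different array set from PS5 and LB2, so between these pairs line and array set cannot be told apart. The 6 genes with the smallest p were Spink1, Xist, LOC100047619, LOC381904, Pou6f1 and Trp53. Spink1, a secreted protease inhibitor, was at 11.26, 7.501, 13.68 and 11.69 and ranged from 4.74 to 11.97 in the embryos. Pou6f1, a POU factor, was at 10.24 in PS5 and 7.65 in LMS3 but 4.71 and 4.72 in CAV2 and LB2, near the embryos (4.34 to 4.57). Trp53, the gene of p53, was at 4.99 and 5.46 in CAV2 and LMS3 and at 9.65 and 9.12 in PS5 and LB2. This split also follows the array sets, and their part in it was not tested. The unamplified arrays of the same lines averaged 10.96. The embryos lay at 8.20 to 9.39, and the late streak epiblasts, of the array set of CAV2 and LMS3, at 8.78 to 9.39. In the main comparison Trp53 did not pass. It was lower in the shared array set (-3.85 with adjusted p = 2.14e-08), without PS5 (-2.225 with adjusted p = 0.00488) and without LB2 (-2.05 with adjusted p = 0.0181).

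Across the tested genes line correlated with line at 0.86 to 0.97, embryo with embryo at 0.89 to 0.99 and line with embryo at 0.78 to 0.90. These are correlations across genes, which are not replicates, and all profiles share the array, the amplification and the probes. PS5 was most like the late midstreak epiblasts (0.904) and LB2 most like the late streak epiblasts (0.888). CAV2 was most like the late bud epiblasts (0.847) with late streak next (0.843), and LMS3 most like the late bud epiblasts (0.870). No line was most like the stage of its label, and the labels of PS5 and LB2 are in doubt (above). The split between these pairs of lines follows the array sets, CAV2 and LMS3 in the second and PS5 and LB2 in the third. Of the bud stages, the late bud epiblasts lay in the first set, the no bud epiblast in the second and the early bud epiblasts in the third. No line was most like a stage of its own array set. The part of the array sets in the split was not tested. The labels describe the bud stage epiblasts EB3 and LB3 as RNA from cultured cells, unlike the other epiblasts.

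**Figure D5:**
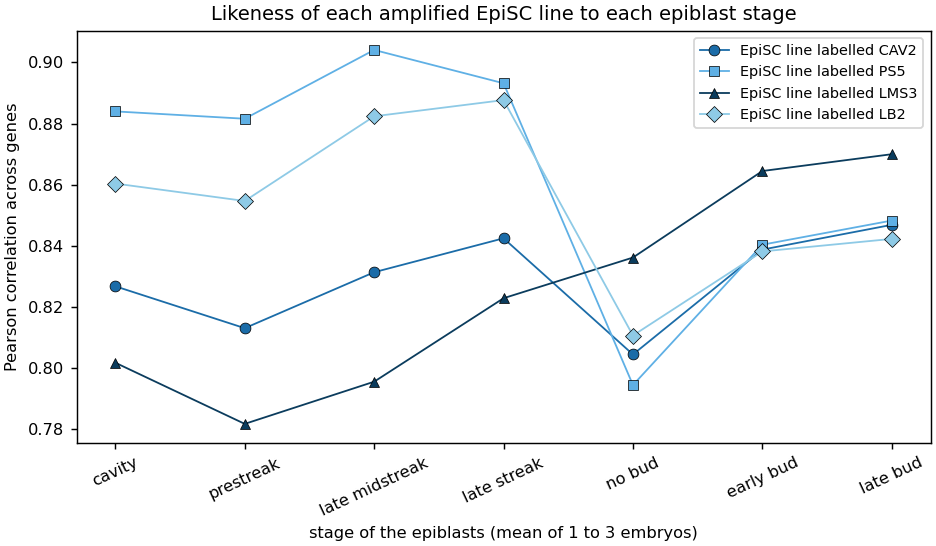
Pearson correlation across the 12123 tested genes between each amplified EpiSC line and the mean of each epiblast stage (1 to 3 embryos each), with the vertical axis starting above 0. The lines labelled PS5 and LB2 peak at the streak stages (0.904 and 0.888) and CAV2 and LMS3 at late bud (0.847 and 0.870). These pairs of lines also lie in different array sets.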

How the data were processed

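RNA was measured on Illumina bead arrays after 2 rounds of amplification, per the labels' protocols. The deposited intensities (linear, per probe) come with a detection p-value per probe and array, as BeadStudio exports them, per the submitters' processing notes. No source used here gives the array type. The authors also deposited processed log2 values, used as an alternative. All arrays of the series were background-corrected together from the detection p-values, an offset of 16 was added, and quantile normalization and log2 transformation followed (limma 3.58.1, R 4.3.3). The 3 cultures of a line were averaged, and lines and epiblasts of all stages were fitted together with limma's moderated test and a mean trend, adjusted by Benjamini-Hochberg. A gene was tested when detected (p under 0.01) on at least 3 of the 18 arrays, and its probe with the highest mean stood for it. Where no array of the dimmer arm detected a gene, the fold is a lower bound against the dimmest detected signal, or is left out where it falls under 1. Named genes are the 12 largest changes in each direction, the 6 smallest p in the stage and line comparisons, and list members; 1 gene among the largest rises is not reported here. The members of the comparison and the 34 lists were chosen with earlier results of these data known. Cultures were grown apart for 3 days, per the series' design text, so differences among lines were set against the spread between such cultures. The numbers of the embryos did not pair them: same-numbered late midstreak and late streak epiblasts deviated together at -0.176, 0.116 and 0.171. The fit was tested on simulated data.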

Additional observations from a re-analysis of the deposited data

Results flagged for a closer look

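Of 72 checks for a sample apart from its group, on list means and on array detection and intensity, 1 stood out. The mean of the list of genes of the epiblast after implantation was 10.25 in embryo LMS1, against 10.38 to 10.46 in the other 5 streak epiblasts, a gap of 0.636 of the whole range. Chance gives such a gap in about 1 of 20 groups. All 4 lines lay lower than this embryo, at 9.42 to 9.80.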

How the results depend on the processing

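Between EpiSC and streak epiblasts, leaving out 1 line or embryo at a time gave 2923 (without CAV2) to 4121 (without PS5) genes, 1793 to 2356 higher and 1130 to 1765 lower. The 2-fold minimum gave 551 genes, 434 higher and 117 lower, and the shared array set, chosen after seeing the data, 2728 lower. The higher share of the calls was 58.7 percent, 51.6 to 63 percent under the other alternatives and 78.8 percent under the 2-fold minimum. Between the stages of the streak arm the 2-fold minimum gave 65 genes, the fit of only these groups 3360, the replicate block, though the numbers do not pair the embryos, 3500, and leaving out 1 embryo 1041 (without LS2) to 2157 (without LS3). Among the lines the 2-fold minimum gave 6378 genes and the replicate block 10348. Of 194 genes described 148 were called, 77 of them the same way under every alternative run, and 33 others were called under some alternative. Klf2 turned to -0.0631 (adjusted p = 0.947) within the shared array set, and Osr1 to 0.494 (adjusted p = 0.0821) on the deposited processed values. The causes were not tested. Signal near background, the small number of embryos and the different handling of the arms limit these values.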

Other observations

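Embryo LS3 carried both Xist (9.29) and the Y-linked Eif2s3y (8.46), while every other streak epiblast had only 1 of them well above background. Spink1, a secreted protease inhibitor also expressed in visceral endoderm, ranged from 4.74 in embryo LMS3 to 11.97 in embryo LMS2. LOC381904 was at 5.57 in the line labelled PS5, against 9.37 to 10.72 in the other lines and 10.33 to 10.98 in the embryos.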
